A study of Rattus norvegicus with 8 samples.

Results

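Intermediate filament genes of neurons and glia were followed in purified rat retinal ganglion cells (RGCs), whose axons make up the optic nerve. They comprised the neurofilament genes Nefl, Nefm and Nefh, alpha-internexin (Ina), peripherin (Prph), the glial filament gene Gfap, vimentin (Vim) and nestin (Nes). These 8 genes were chosen by symbol in the probe annotation table, which assigned them 19 of the 45220 spots. The table gave 11 spots to Gfap, 2 to Nes and 1 to each of the other genes. RGCs had been purified from normotensive control eyes and from fellow eyes exposed to chronic ocular hypertension (COH), that is, to long-raised eye pressure as in glaucoma models. There were 4 control and 4 COH samples, paired by replicate number, and according to the design text each pair came from the 2 eyes of the same pooled animals. The sources used here give no strain, age, animals per pool, method of raising pressure or duration. The RNA was amplified, labelled with Cy5 and hybridised on a two-colour array of its own beside a common Cy3-labelled rat reference RNA. Every level below is the log2 of that RGC to reference ratio, and every difference is COH minus control on this scale. With 1 dye orientation throughout, dye bias cannot be told apart from the level, and the number of arrays limits the precision.

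Intermediate filaments are rope-like polymers that give cells mechanical strength, and each cell type builds them from its own subunits. In mature neurons the light, medium and heavy neurofilament proteins assemble with alpha-internexin or peripherin, fill large axons and set axon calibre. The neurofilament triplet is abundant in RGCs and their axons. Astrocytes and Muller glia use GFAP and vimentin, and nestin is known from neural progenitors and reactive glia. A rise of GFAP in Muller cells is a widely used sign of retinal stress.

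No filament gene differed between COH and control RGCs past the test. Of the 7 genes with a spot valued on all 8 arrays, 0 had an adjusted p under 0.05 and 0 had an unadjusted p under 0.05 by limma with the pair as a block. Among all 18595 items tested (named genes and unnamed spots), 0.0% and 4.73% met these thresholds. The median difference, COH minus control, was -0.07 over the 7 genes and 0.08 over all items. In 0 of the 7 genes did all 4 pairs differ the same way, against 13.0% of all items. The COH and control values overlapped for each of the 7 genes, while they did not overlap for 2.52% of all items. With 4 pairs an exact two-sided sign-flip test cannot give a p below 0.125. The limma p-values rest on the spread of the within-pair differences over the pools, with each variance drawn toward that of all items.

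How much weight a spot can bear differed among the members. Signal intensities were not used here, and a value that recurred exactly in 3 or more spots of its array, called shared below, stood in for low signal. Its relation to signal was not tested. Shared values were common throughout, from 50.85% of the values of control 3 to 59.55% of those of control 1. Of the 10 filament spots with a value on all 8 arrays, 5 had distinct values throughout, namely those of Nefm, Ina, Prph and Vim and the second spot of Nes. The spot of Nefl and 2 spots of Gfap had shared values on all 8 arrays. Over the whole table, 50.5% of spots had a value on all 8 arrays. Of those, 42.7% were distinct throughout and 13.9% were shared throughout. Ratios also drifted with the feature number: a running median spanned 1.21 log2 units on COH 4, 0.93 on control 3 and 0.19 to 0.66 on the others.

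Nefl encodes the light neurofilament protein, on which the other neurofilament subunits assemble. Its log2 ratio over the reference was 1.45, 0.62, -0.69 and 0.26 in control samples 1 to 4, and 0.80, 0.74, 0.29 and 0.32 in COH samples 1 to 4. The COH values lay inside the control range, which was wider, with an SD of 0.89 in control against 0.27 in COH samples (n = 4 each). COH minus control was 0.12 in pair 2, 0.05 in pair 4 and 0.99 in pair 3, and -0.65 in pair 1. The fitted difference of 0.13 ± 0.38 (SE) had a 95% interval from -0.78 to 1.04 and a limma adjusted p of 0.974. Its direction turned without pair 3 (-0.16) and after removal of the drift with feature number (-0.067). All 8 of its values were shared ones.

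Nefm encodes the medium neurofilament protein. Its ratio was 1.21, 0.82, 0.22 and 0.57 in control samples 1 to 4, and 0.60, 0.37, 0.55 and 1.03 in COH samples 1 to 4. All 8 values were above the reference and distinct, and the ranges of the groups overlapped widely. Means were 0.71 ± 0.42 in control and 0.64 ± 0.28 in COH samples (SD, n = 4), with 2 pairs higher and 2 lower in COH. The difference of -0.07 ± 0.36 (SE) had an interval from -0.92 to 0.79, which spans fold changes from 0.528 to 1.73 (limma adjusted p = 0.985). Its direction turned without pair 1 (0.12) or pair 2 (0.06), and removal of the drift gave -0.34. In the current rat annotation (GRCr8) Nefl and Nefm are neighbouring genes on chromosome 15. Nefm differed by -0.62, -0.44, 0.33 and 0.46 in pairs 1 to 4, with the sign of Nefl in pairs 1, 3 and 4 and the opposite sign in pair 2.

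Nefh encodes the heavy neurofilament protein, whose long phosphorylated tail projects from the filament. Its spot had no value on the COH 2 array, so it was not among the 7 genes and was fitted on 3 complete pairs. Its ratio was -0.80, 0.57, -1.30 and 0.78 in control samples 1 to 4, and 0.06, 0.98 and 1.32 in COH samples 1, 3 and 4. The 3 COH values were above the reference, and control 2 and control 4 lay between the lowest and the highest of them. COH minus control was 0.87, 2.28 and 0.54 in pairs 1, 3 and 4. Of all spots with exactly 3 complete pairs, 11.0% were likewise higher in COH in 3 of 3. The fitted difference of 1.23 ± 0.53 (SE, n = 3 pairs) had an interval from -0.08 to 2.54, with a limma adjusted p of 0.895. Without pair 3 it was 0.70, and 6 of the 7 values were shared ones.

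Ina encodes alpha-internexin, a neuronal filament protein that appears early in development and co-assembles with the neurofilament triplet in the adult central nervous system. Its ratio was -0.59, -0.26, -0.85 and -0.29 in control samples 1 to 4, and -0.74, -0.55, -0.79 and -0.87 in COH samples 1 to 4. All 8 values were distinct and below the reference, with 3 of 4 pairs lower in COH and overlapping groups. The SD of its 4 pair differences, 0.27, was smaller than that of all but 5.56% of items, whose median was 0.83. The difference was -0.24 ± 0.32 (SE), with an interval from -1.01 to 0.53 and a limma adjusted p of 0.946. Without pair 4 the difference was -0.13, and after removal of the drift -0.12.

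Prph encodes peripherin, the filament protein of peripheral neurons and of some central neurons with long axons. Its ratio was -0.09, 0.28, 0.03 and -0.56 in control samples 1 to 4, and 0.08, 0.19, -0.16 and -1.16 in COH samples 1 to 4. Values were distinct on all 8 arrays and lay on both sides of the reference in each group. Within both groups the sample of replicate 4 was the lowest. The difference was -0.18 ± 0.33 (SE), with an interval from -0.96 to 0.60 and 3 of 4 pairs lower (limma adjusted p = 0.961). Without pair 4 it was -0.04, without the COH 4 array alone 0.12, and after removal of the drift -0.0053.

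**Figure D1:**
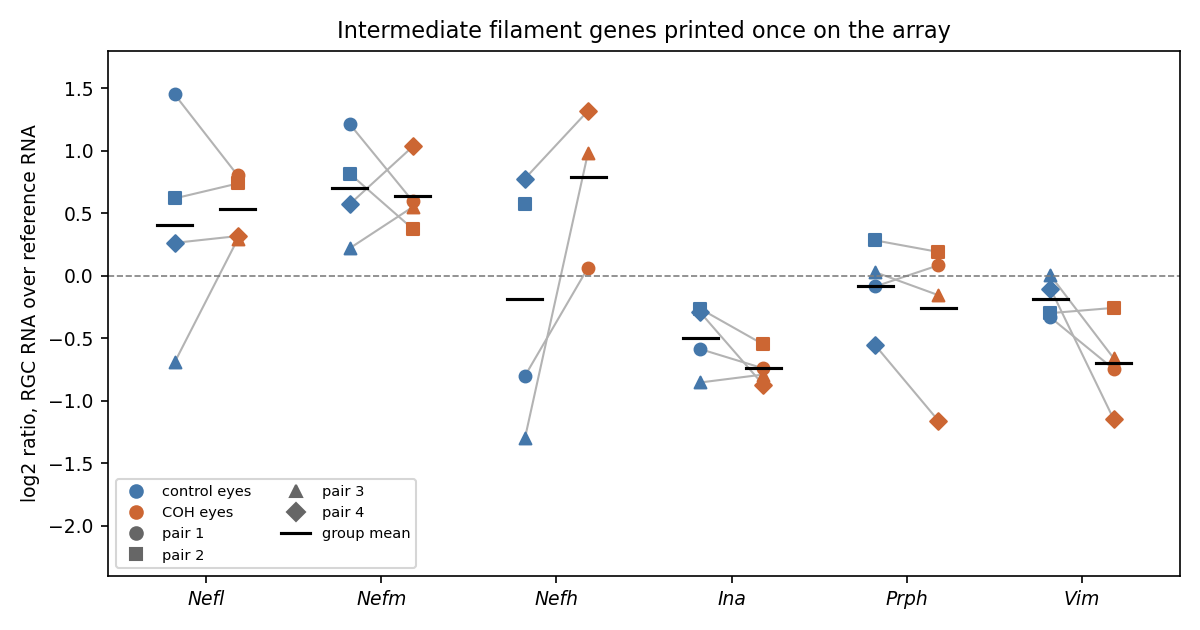
Log2 of the RGC to reference ratio (vertical axis) for the 6 filament genes printed once, as blue control and orange COH points joined within a pair, with black bars for group means. Ina lies below 0 and Nefm above 0 on all 8 arrays, the groups overlap for every gene shown, and Nefh has no COH value in pair 2.

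As a reading of level, the 4 control values exceeded the reference for 2 of the 7 tested genes, Nefm and Gfap, and were under it for 1, Ina. Among named genes these shares were 22.3% and 45.9%. The side of 0 depends on where an array is centred. Array medians ran from -0.06 to 0.125 over all valued spots, and from -0.51 to -0.18 over spots valued on all arrays. With each array centred on the latter median, the control mean was -0.14 for Ina, 0.28 for Prph and 0.18 for Vim. Without centring it was -0.50, -0.08 and -0.18. These levels carry no test, and a ratio to a reference gives no order of abundance among the genes.

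Gfap encodes the filament protein of astrocytes and of reactive Muller glia. Of its 11 spots, 10 were assigned to 1 transcript and 1 to another accession, and all of them drew on the same 8 RNA samples, so they are not replicates of a condition. They carried 62 of 88 possible values, 51 of them above the reference, and 55 of the 62 were shared ones. Of the 10 spots of the common transcript, 1 had no value on any array, as had 0.849% of all spots. Values were present for 70.0% of the cells of this transcript (spots by arrays), against a median of 97.5% for the other transcripts printed at least 5 times. The sources used here do not say whether these spots hold the same probe.

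How closely the spots of Gfap agreed within an array varied. On control 1 the 7 valued spots of the common transcript ranged from -1.11 to 2.42, with an SD of 1.49, larger than for 93.7% of the other often printed transcripts. On control 3 the 9 valued spots ranged from 0.57 to 2.26, with an SD of 0.52, larger than for 28.1% of them. That share was 24.9% on COH 4 and 47.1% on COH 1, so on 3 of 8 arrays the Gfap spots were closer together than those of the median transcript. The median over these spots was 0.99, 0.58, 1.72 and 0.67 in control samples 1 to 4, and 1.12, 0.61, 1.25 and 1.14 in COH samples 1 to 4.

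**Figure D2:**
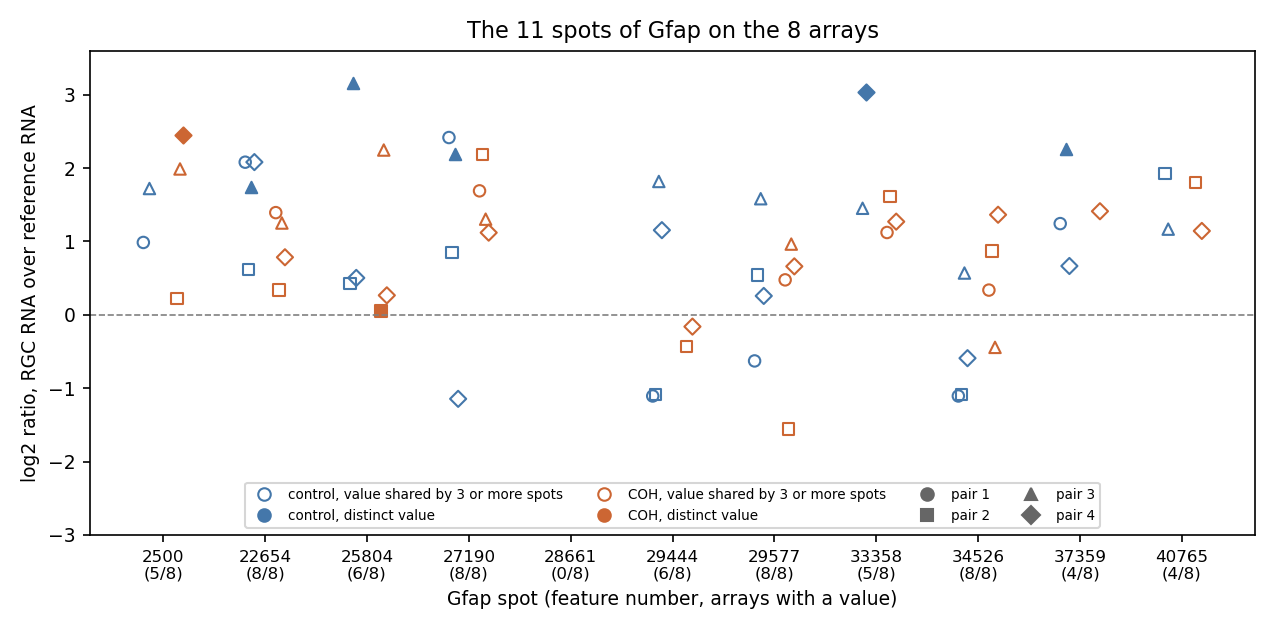
Log2 of the RGC to reference ratio (vertical axis) for each of the 11 Gfap spots (horizontal axis, with the number of arrays that gave a value), with control samples in blue and COH samples in orange. Open symbols are values shared by at least 3 spots of the array, 55 of the 62 values, and spot 28661 has none.

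For COH against control, the 4 Gfap spots valued on all 8 arrays pointed different ways. Spot 22654 was at 2.08, 0.62, 1.74 and 2.08 in control samples 1 to 4 and at 1.39, 0.34, 1.25 and 0.79 in COH samples 1 to 4. It was lower in COH in 4 of 4 pairs, as were 4.74% of all spots tested, by -0.69 ± 0.35 (SE, interval -1.52 to 0.15). Spot 34526 was at -1.11, -1.08, 0.57 and -0.59 in control samples 1 to 4 and at 0.34, 0.87, -0.44 and 1.36 in COH samples 1 to 4. It was higher in COH in 3 of 4 pairs, by 1.09 ± 0.57 (SE, interval -0.26 to 2.43). The limma adjusted p was 0.896 for both, so spots of 1 transcript stood on opposite sides of 0 with neither passing. Shared values made up all 8 of spot 34526 and 7 of the 8 of spot 22654. On control 1 and control 2, spot 34526 had exactly the values of Gfap spot 29444, -1.11 and -1.08. Tested singly, 0 of the 10 complete filament spots had an unadjusted p under 0.05, against 4.83% of all complete spots. Without pair 3 spot 34526 was at 1.79 (limma unadjusted p = 0.00477, adjusted p = 0.971). Spot 27190 differed by 0.50 ± 0.60 and spot 29577 by -0.30 ± 0.56 (SE), each with 2 pairs higher and 2 lower. Spot 25804, of the other accession, had 3 complete pairs and was lower in 3 of 3, as were 15.0% of such spots, by -0.51 ± 0.45 (SE).

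Averaged over those 4 complete spots, Gfap was at 0.69, 0.23, 1.52 and 0.15 in control samples 1 to 4, and at 0.97, 0.46, 0.77 and 0.98 in COH samples 1 to 4. COH was higher in pairs 1, 2 and 4 and lower in pair 3. The difference of 0.15 ± 0.38 (SE) had an interval from -0.75 to 1.05, or fold changes from 0.593 to 2.07 (limma adjusted p = 0.971). It was -0.08 without pair 4, 0.45 without pair 3 and -0.00087 after removal of the drift. Counting every within-pair difference that any Gfap spot gave, 10 of 25 were higher in COH and 15 lower, with a median of -0.28 and a range from -2.10 to 2.27. These 25 come from the same 4 pairs and are not independent, so the count is a description only. The gene mean and this median have opposite signs. Of the 10 measured Muller glia and astrocyte markers other than filaments (14 listed), 7 had a mean difference below 0, against 8137 of all 18595 items. Over the pairs their mean differed by -0.17, -0.47, 0.38 and -0.68, from control levels of -0.69 to -0.02 and COH levels of -1.0 to -0.32. Of these markers 2 were lower at an unadjusted p under 0.05 (Slc1a2 at -1.24 and Aldh1l1 at -0.92), against 2.17% of all items, and 0 had an adjusted p under 0.05. The 3 with a mean difference above 0 were Glul, the glutamine synthetase gene of Muller glia, at 0.83, Gja1 at 0.18 and Apoe at 0.08. The part of glial RNA in the filament values was not tested. In bulk samples such as these, a different number of cells of a type and a different amount of RNA per cell cannot be told apart.

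Vim encodes vimentin, a filament protein of Muller glia, astrocytes and many non-neuronal cells. Its ratio was -0.33, -0.30, 0.00 and -0.10 in control samples 1 to 4, and -0.75, -0.26, -0.66 and -1.15 in COH samples 1 to 4. All 8 values were distinct. In 3 of 4 pairs COH was lower, and only COH 2, at -0.26, overlapped with the control samples. Vim had the smallest p of the 7 genes (limma unadjusted p = 0.179, adjusted p = 0.915), with a difference of -0.52 ± 0.35 (SE, interval -1.34 to 0.30). It stayed below 0 in each of the 23 other settings, from -0.70 without pair 2 to -0.34 without pair 4. Some of these settings, such as the median of spots or the fit without the block, could not move it. Pair by pair, Vim differed by -0.41, 0.04, -0.66 and -1.04. The mean of the glial markers named above was lower in pairs 1, 2 and 4 and higher in pair 3, so the signs matched in pairs 1 and 4.

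Nes encodes nestin, the large filament protein of neural progenitors, and had 2 spots assigned to the same transcript. Spot 14164 had no value on control 1. It was at -2.11, -3.18 and -2.43 in control samples 2 to 4, and at -2.9, -0.73, -2.19 and -1.20 in COH samples 1 to 4. All 7 values were below the reference, and 5 of them were shared. Within the 3 complete pairs COH was higher by 1.37, 1.0 and 1.23, as it was in 3 of 3 for 11.0% of such spots. The fit gave 1.2 ± 0.44 (SE, interval 0.12 to 2.28), with a limma unadjusted p of 0.0346 and an adjusted p of 0.895. It was the only 1 of the 13 filament spots with at least 3 complete pairs to have an unadjusted p under 0.05 in that fit, against 5.13% of all such spots. The unadjusted p was over 0.05 in 6 of the 10 alternatives run. It was 0.0851 with arrays scaled to the same spread, 0.0718 after quantile normalization, and 0.128, 0.0731 and 0.0882 without pairs 2, 3 and 4. Without the block the difference was 0.82 (unadjusted p = 0.196), since the unpaired COH 1 sample, at -2.9, then enters. Under the scaling and the quantile normalization it was Nefh that had an unadjusted p under 0.05 (0.0468 and 0.0374).

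Spot 22184 of the same transcript behaved otherwise. It was at 1.75, -2.36, -4.29 and -2.88 in control samples 1 to 4, and at -2.53, -3.09, 1.04 and 1.30 in COH samples 1 to 4. The values fell into 3 high arrays (control 1, COH 3 and COH 4) and 5 low ones, with a gap of 3.40 log2 units between them. None of the 8 was a shared value. Its range of 6.03 was exceeded by 29 of the 9767 spots with distinct values on all arrays, whose median range was 1.63. On COH 3 and COH 4 the other Nes spot was at -2.19 and -1.20. COH minus control at spot 22184 was -4.28, -0.73, 5.33 and 4.18 in pairs 1 to 4, and the fit gave 1.13 ± 1.51 (SE, interval -2.45 to 4.71, limma adjusted p = 0.944). Without pair 1 it was 2.93 and without pair 3 it was -0.27.

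**Figure D3:**
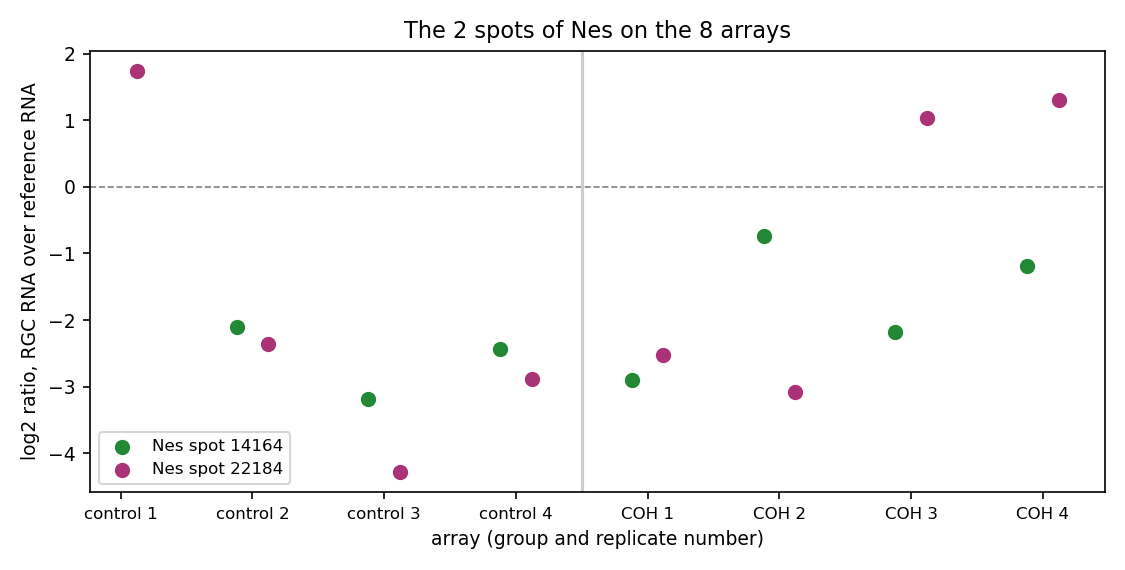
Log2 of the RGC to reference ratio (vertical axis) for the 2 spots of Nes on each array, with control samples left and COH samples right of the vertical line. Spot 22184 is above 0 on control 1, COH 3 and COH 4 and below -2 on the other 5, while spot 14164 is below 0 on its 7 valued arrays.

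**Figure D4:**
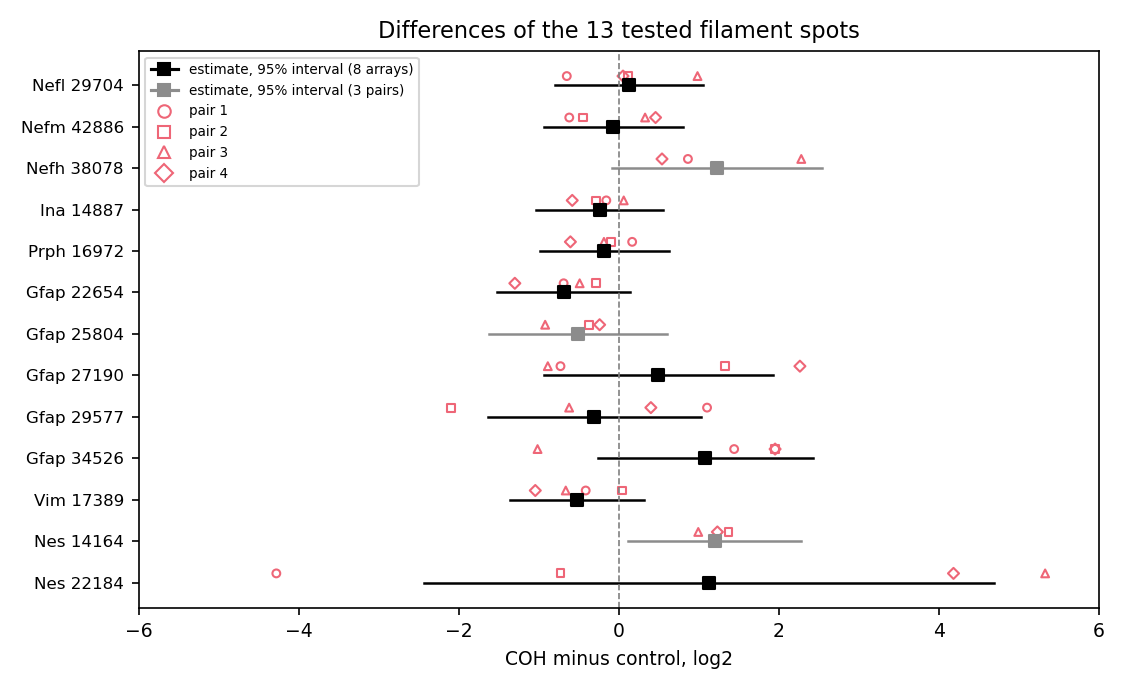
COH minus control on the log2 scale (horizontal axis) for the 13 filament spots with at least 3 complete pairs, as estimates with 95% intervals (black from 8 arrays, grey from 3 pairs) and open red symbols for the single pairs. Every interval but that of Nes spot 14164 includes 0, and the 5 Gfap spots shown lie on both sides of it.

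Genes that build, anchor, modify, degrade or move filaments were taken from lists and gave no adjusted call either. Of 77 listed genes 57 were measured. Of these, 0 had a limma adjusted p under 0.05, 1 was higher and 0 were lower at an unadjusted p under 0.05, against 2.57% and 2.17% of all items. Their median difference was 0.07, where that of all items was 0.08. Differing the same way in 4 of 4 pairs, 5 were higher and 0 lower, against 8.38% and 4.66%.

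Among 13 other intermediate filament proteins, 4 were higher in 4 of 4 pairs, against 8.38% of all items, and the median difference was 0.17. These 4 are among the 5 counted above over all 57 genes. Iffo1, which carries an intermediate filament domain, had the smallest p (difference 1.68 ± 0.36, SE, limma unadjusted p = 0.00242). Krt14, an epidermal keratin, had the smallest p among the lower ones at -0.21 ± 0.34. For 10 linkers and anchors the median difference was 0.14, with Syne3, a nesprin of the nuclear envelope, at 0.61 ± 0.37 and the junction protein plakoglobin, Jup, at -0.54 ± 0.42. For 17 kinases, phosphatases and other modifying enzymes the median was 0.02. In that group the mitotic kinase Cdk1 differed by 0.67 ± 0.38 and Rock2, a kinase that phosphorylates vimentin and GFAP, by -1.13 ± 0.52. For 11 genes of filament turnover and chaperoning the median was 0.06, with the ubiquitin ligase Siah1 at 0.81 ± 0.37 and the co-chaperone Bag3 at -0.55 ± 0.37. For 6 transport genes it was -0.04, with the kinesin light chain Klc1 at 0.46 ± 0.37 and Kif5a, a kinesin heavy chain known to carry neurofilaments, at -0.26 ± 0.38. All of these had a limma adjusted p of 0.915 or more, and the spots of Kif5a had shared values on 5, 8 and 4 arrays. Shared values were also present for Syne3 on 7 arrays, Siah1 on 4, the spots of Klc1 on 4 and 0, and Iffo1 on 1.

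Marker levels on this scale cannot set RGCs apart from other retinal cells, since a ratio to a reference gives no order of abundance. Of 14 listed RGC markers 11 were measured, with a median control level of 0.07, where that of all named genes was -0.41. The median control level was 1.69 for 4 photoreceptor markers and 0.52 for 8 microglia and macrophage markers. It was -0.04 for 6 bipolar and amacrine cell markers and 0.84 for Sox10, the 1 measured oligodendrocyte and Schwann cell marker. For 10 Muller glia and astrocyte markers other than filaments it was -0.40, and for 4 vascular and mural cell markers -0.53. Pou4f1, Pou4f2 and Pou4f3, transcription factors that define RGCs, had no spot named here with values on all arrays. The mean over the 11 markers was 0.67, 0.12, -0.22 and -0.06 in control samples 1 to 4, and 0.22, 0.46, 0.12 and -0.23 in COH samples 1 to 4. Of the 11 markers 6 had a mean difference above 0, as had 10458 of all 18595 items. The median over the 11 was 0.06, and Tubb3 at 0.83 and Stmn2 at 0.55 were among the 6. The RGC surface protein gene Thy1, at -1.28, was the 1 marker with an unadjusted p under 0.05, where 2.17% of all items were lower at that threshold. Nefm and Nefl were, like the marker mean, highest in control 1 and lowest in control 3 among the control samples. Over spots valued on all arrays, the array medians had the same extremes, -0.18 in control 1 and -0.51 in control 3. Over all valued spots of an array they did not, with 0.0011 in control 1 and 0.125 in control 3. The 4 measured photoreceptor markers averaged 2.41, 0.88, 0.50 and 0.45 in control samples 1 to 4, and 1.02, 0.74, 1.49 and 2.80 in COH samples 1 to 4. They were highest on COH 4, control 1 and COH 3, the arrays on which Nes spot 22184 was high, and their part in its values was not tested.

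For each filament gene the 2 nearest named genes in profile over the 8 arrays were found, after array medians and each gene's own mean had been subtracted. The measure was the mean absolute difference in log2 units, and with 8 arrays and 9792 named genes some closeness arises from the number compared. Nefl was nearest to C10h17orf58 (0.10) and Dnajc4 (0.11), Nefm to Prxl2b (0.08) and Upf3a (0.09), and Ina to Shisa4 (0.10) and Cryab (0.10). Prph was nearest to Kif22 (0.08) and Rbm5 (0.09), Gfap to Kcnj11 (0.11) and Ppp2r2d (0.15), and Vim to Mbd2 (0.10) and Hgf (0.13). Nes, here spot 22184 alone, was nearest to Calca (0.574) and Ism1 (0.575), where the median over named genes was 2.0. For the other filament genes that median was 0.48 (Nefm) to 0.60 (Gfap). Their own profiles were rather flat, with a mean absolute deviation of 0.21 (Ina) to 0.38 (Nefl), against 2.01 for Nes. No filament gene was among the 2 nearest of another.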

How the data were processed

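RNA from purified RGCs of 4 control and 4 COH samples was measured on two-colour Agilent rat arrays against reference RNA. The deposited values are log2 ratios per spot, which the authors normalised with Lowess and limited, per the design text, to spots that met Agilent's quality control. The table states neither log base nor direction: the base was read from spacings between recurring values, the direction from the dyes per the labels. Between 32101 and 42076 spots of an array had a value.

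Spots with 1 symbol in the probe annotation were averaged per gene where valued on all 8 arrays, and others were tested singly. The 18595 items, 9792 of them named genes, were fitted with limma 3.58.1 (R 4.3.3; Python 3.11.15, pandas 2.3.3 and matplotlib 3.10.9 for tables and figures), two-sided, with Benjamini-Hochberg adjustment and the replicate number as a block. Spots with at least 3 complete pairs were fitted likewise. The pairing comes from the design text: deviations of same-numbered arrays correlated at 0.09, 0.02, 0.06 and 0.03, and of others at -0.19 to 0.09. The fits were tested on simulated data. Alternatives covered scaling, block, weights, priors, filters, spot summaries, drift with feature number and left-out arrays.

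Every filament gene and spot was named; from each list of other filament genes, the one with the smallest p in each direction; and the 2 genes nearest in profile to each. Members and lists were chosen with earlier results of these data known. Sequences were not used here.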

Additional observations from a re-analysis of the deposited data

Results flagged for a closer look

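For the 6 measured genes of filament transport, the mean within-pair difference was -0.26 in pair 2, apart from 0.12, 0.06 and 0.08 in pairs 1, 3 and 4. Its gap to the nearest pair was 0.846 of the range, above Dixon's 95% critical value for 4 values. Of 72 groups of 4 values examined 1 stood apart in this way, and chance gives about 1 in 20.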

How the results depend on the processing

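No filament gene reached an adjusted p under 0.05 in any alternative run. Ina and Vim kept their direction in 23 of 23 alternatives. Some of these, such as the median of spots or the robust fit, could not move the difference of a gene with 1 complete spot. Removal of the drift with feature number turned Nefl to -0.067 and Gfap to -0.00087. Leaving out pairs or single arrays (single arrays without the block) moved Nefl from -0.24 to 0.47, Nefm from -0.24 to 0.12, Prph from -0.34 to 0.12, Gfap from -0.080 to 0.45 and Nes from -0.27 to 2.93. As a gene, Nes was spot 22184 alone in these fits. With at least 3 complete pairs required, both Nes spots entered, and the difference was 0.43 in place of 1.13. Leaving out pairs moved Gfap spot 27190 from -0.093 to 0.96 and spot 29577 from -0.77 to 0.30. Filament genes with an unadjusted p under 0.05 numbered 0 to 1 with pairs or arrays left out (Nes without pair 1). Filament spots with such a p numbered 0 to 1 with pairs left out, among them Gfap spot 34526 without pair 3. With at least 3 complete pairs, 1 spot had such a p. Without the replicate block the differences of complete genes did not move, and the limma unadjusted p of Vim was 0.134. The rule of the design text, an unadjusted p under 0.05 with at least 1.5-fold, was applied to the fits run here. In the main fit 880 items met it, as many as had an unadjusted p under 0.05. Without the block 697 items met it in place of 880. That count was 431 with distinct values only (of 8278 items, 358 higher and 73 lower, against 477 and 403 of 18595), 566 with an unmoderated test of within-pair ratios and 541 to 1079 with pairs or arrays left out. Genes above the reference on all control arrays numbered 1 in place of 2 with distinct values only. Those below it numbered 0 with centred arrays and 2 after quantile normalization, in place of 1. With 4 pairs and a median SE of 0.42, small differences were not detectable. Shared values, the stand-in for low signal, were most frequent for Nefl, Nefh and Gfap.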

Other observations

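Nes spot 22184 was not alone in its pattern, a description chosen after its values were seen. On 42 spots, 23 of them with 1 gene symbol, control 1, COH 3 and COH 4 lay above the other 5 arrays by more than 1 log2 unit. The Nes spot had the widest gap, 3.40, followed by a spot of Ism1, which encodes a secreted protein, at 3.31. Among the others were spots of Dimt1 (gap 3.02), Znfx1 (2.47) and the neuropeptide gene Calca (1.54). Of the 10 spots of Hcrt, which encodes the orexin precursor, 3 were among them. The arrays concerned come from both groups, and the cause was not tested.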
